A study of Mus musculus with 9 samples.

Results

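Metallothioneins and zinc transporters were examined in RNA-seq data from RAW264.7 macrophages. The set comprised 10 genes, taken by symbol from the deposited table of 55401 genes: the metallothioneins Mt1 and Mt2, the zinc sensor Mtf1, the zinc exporters Slc30a1, Slc30a5 and Slc30a7, and the zinc importers Slc39a1, Slc39a6, Slc39a10 and Slc39a14. The genes were listed by name, but with earlier results of these data known, so the set is not blind to the values. All 10 passed the filter of a mean of at least 1 TPM (transcripts scaled to transcript length and to a fixed total per sample). RAW264.7 is a mouse macrophage line from a male Abelson virus-induced tumour, labelled WT, and all samples came from this 1 line. The DMSO group received the solvent alone, the LPS group received DMSO and lipopolysaccharide (LPS, a bacterial wall component that drives M1 polarization), and the LPS + Ska group received LPS and skatole, an indole compound. Treatment lasted 24 h by the labels and by the study's account of its results, while its methods section gives a longer time. Each group had 3 samples, numbered 5, 6 and 7, and no group received skatole without LPS, so an effect of skatole alone cannot be told apart from one that needs LPS.

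Some features of the whole data set touch every value below. For LPS and for LPS + Ska, replicate 5 was the mean of replicates 6 and 7 for all 17950 and 17658 genes with both values above 0, with a largest gap of 5e-06 TPM. No more than 2 of these 3 columns can be independent, and the SD over the 3 columns does not describe 3 separate cultures. The same equality held for 10 of 16674 genes in DMSO. A further 4042 genes in LPS and 4047 in LPS + Ska had replicate 6 or 7 at 0 and replicate 5 above 0. There the equality could fail: Mt3 in LPS + Ska was at 0.0227, 0 and 0.0682 TPM in replicates 5, 6 and 7. Which of the tied columns were measured and which were derived cannot be told from the values. The p-values measure the spread between these columns, which may be technical, as the labels do not say that the samples were separate cultures. Sequencing depth cannot be read from TPM and is unknown. All 9 macrophage markers examined were measured (Cd68 stood at 806, 857 and 855 TPM in DMSO), the T cell and epithelial markers and Pdgfra were listed at 0 in all columns, and all 5 LPS response markers rose with LPS. The macrophage markers differed between groups too: 3 of the 9 fell with LPS (Csf1r by a log2 fold change of -0.67, Lyz2 -1.05 and Spi1 -0.81), and from LPS to LPS + Ska Lyz2 rose (1.19) and Fcgr1 fell (-0.59). By the calls defined below, 20% of all genes tested fell with LPS. From LPS to LPS + Ska, 3.35% rose and 6.14% fell. Their part in the results below was not tested.

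Zinc is held in the cytosol by metallothioneins, small proteins rich in cysteine that bind zinc and copper. Transporters of the SLC30 family (ZnT proteins) move zinc out of the cytosol, across the plasma membrane or into vesicles, and those of the SLC39 family (ZIP proteins) move it in. When cytosolic zinc rises, the transcription factor encoded by Mtf1 binds metal response elements (MREs) in the promoters of Mt1, Mt2 and Slc30a1 and raises their transcription. Metallothionein and Slc39a14 transcripts are also known to be induced during inflammation.

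The promoters of the known Mtf1 targets are shown because they carry these elements. On GRCm38.p6, in RefSeq's table of promoters, the 250 bases before the start were chr8:94178839-94179088 for Mt1, chr8:94172368-94172617 for Mt2 and chr1:191906531-191906780 for Slc30a1, all on the plus strand. Capitals mark each match to the MRE core, TGCACNC or TGCGCNC on either strand.
Mt1: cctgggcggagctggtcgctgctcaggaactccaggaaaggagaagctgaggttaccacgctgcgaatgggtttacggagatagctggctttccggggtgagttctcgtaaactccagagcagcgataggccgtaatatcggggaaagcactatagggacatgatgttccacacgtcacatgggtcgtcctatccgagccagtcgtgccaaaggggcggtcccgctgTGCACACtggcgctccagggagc
Mt2: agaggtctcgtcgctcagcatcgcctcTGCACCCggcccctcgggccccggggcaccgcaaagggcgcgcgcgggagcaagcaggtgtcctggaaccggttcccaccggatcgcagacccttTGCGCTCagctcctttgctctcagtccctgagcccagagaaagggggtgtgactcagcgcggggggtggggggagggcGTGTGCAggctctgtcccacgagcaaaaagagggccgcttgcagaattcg
Slc30a1: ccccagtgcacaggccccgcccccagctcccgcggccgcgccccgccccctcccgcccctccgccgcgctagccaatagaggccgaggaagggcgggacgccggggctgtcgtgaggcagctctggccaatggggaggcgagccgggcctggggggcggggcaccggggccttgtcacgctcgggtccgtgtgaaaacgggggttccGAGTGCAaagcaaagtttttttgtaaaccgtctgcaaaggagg
A pair of further Mt1 cores lay just after the RefSeq start, at bases 3 to 27 (chr8:94179091-94179115). This stretch lies before the Mt1 transcript starts annotated 122 and 152 bases after the RefSeq start.
Mt1 start: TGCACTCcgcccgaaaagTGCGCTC

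Counted over windows of 300 bases (250 before and 50 after the RefSeq start), Mt1 held 3 MRE cores, Mt2 held 4 and Slc30a1 held 2. At least 3 cores were found in 1.97% of all 32851 windows, at least 4 in 0.517% and at least 2 in 7.11%. The Mt1 cores began at bases -23, 3 and 21 from the start, all on the strand of the gene. The Mt2 cores began at bases -223 and -128 on the strand of the gene and at -50 and 5 on the opposite strand. The Slc30a1 cores began at -43 and 31 on the opposite strand. Slc30a5 held 1 core, and 25.7% of all windows held at least 1. The windows of Mtf1, Slc30a7, Slc39a1 and Slc39a10 held none. The antioxidant response element core TGACNNNGC, the motif read by Nrf2, was found once each in the windows of Mt2, Slc30a1, Slc30a5 and Slc39a1, against 12.4% of all windows with at least 1, and no antioxidant match overlapped an MRE match. These matches are a description of the letters in the windows, and binding was not measured. The table had windows for 8 of the 10 genes, without Slc39a6 and Slc39a14. Annotated transcripts do not all start at the RefSeq position. Of 3 Mt1 transcripts, 1 starts 7 bases before it and the others 122 and 152 bases after it. All 3 Mt1 cores lie before those later starts, and the cores at bases 3 and 21 lie after the earliest. The 2 Mt2 transcripts start 46 and 242 bases after the RefSeq position, so all 4 Mt2 cores lie before both starts. For Slc30a1, 1 transcript starts 14 bases before it and the other 475 bases after it. The windows end 50 bases after the RefSeq position. Bases just before starts further downstream, including the 2 later Mt1 starts, were not searched for either motif.

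**Figure D1:**
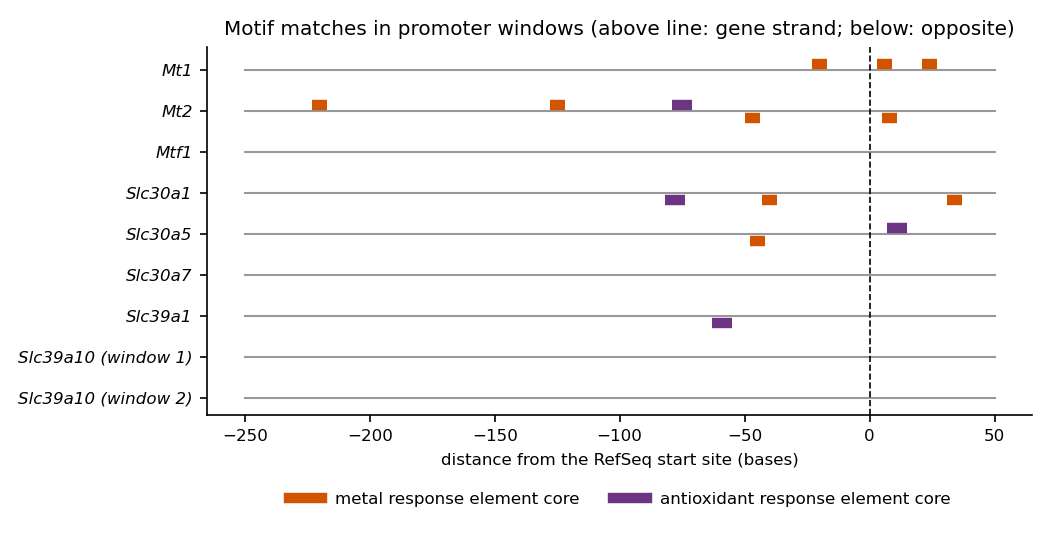
Positions of MRE cores (orange) and antioxidant response element cores (purple) in the 300-base promoter windows; the x axis is the distance in bases from the RefSeq start, and marks above and below each line are on the gene's strand and the opposite strand. Mt1, Mt2 and Slc30a1 hold 3, 4 and 2 MRE cores, and 5 of the 9 windows hold none.

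Mt1 and Mt2 rose with LPS and rose further with LPS + Ska, and none of the other 8 genes was called in LPS + Ska compared with LPS. A gene was called when its limma adjusted p was below 0.05 and it also changed by more than 1.5-fold upwards or to less than 0.67 of the compared level. In LPS compared with DMSO, 3 of the 10 genes were called higher (Mt1, Mt2 and Slc30a7) and none lower, beside 12.7% of the 12819 genes tested called higher and 20% called lower. Between LPS + Ska and LPS, 2 of the 10 (Mt1 and Mt2) were called higher and none lower, beside 3.35% and 6.14% of all genes. Between LPS + Ska and DMSO, the same 2 genes were called higher and none lower, beside 11.4% and 25.3% of all genes. The median log2 fold change of the 10 genes was 0.27 in LPS compared with DMSO, where the median of all genes was -0.067. It was 0.039 in LPS + Ska compared with LPS, where that of all genes was -0.096, and in LPS + Ska compared with DMSO it was 0.28, where that of all genes was -0.18. Scaling the columns by median ratios moved the all-gene median in LPS + Ska compared with DMSO to -0.0033, and the share of called genes that were higher from 31% to 49.6%. With that scaling the split of the other comparisons moved from 38.9% to 48.8% higher (LPS compared with DMSO) and from 35.3% to 52.4% higher (LPS + Ska compared with LPS). The 3 comparisons share groups, so their values are not independent of each other.

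**Figure D2:**
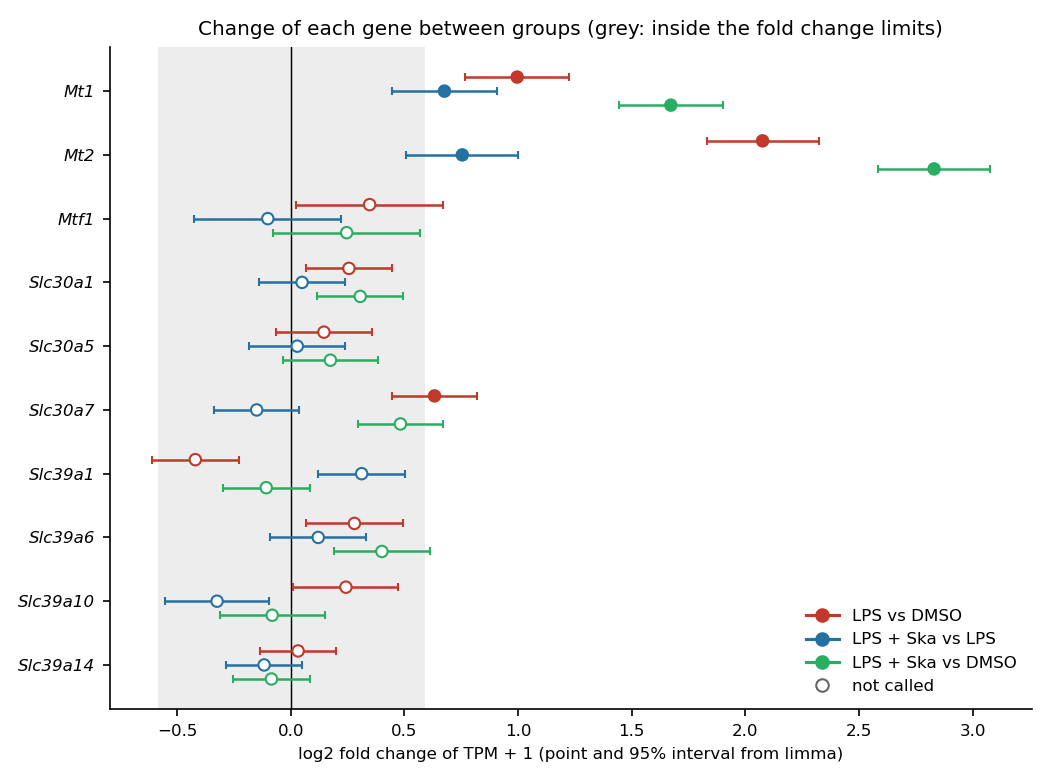
Log2 fold change of TPM + 1 for each of the 10 genes in the 3 comparisons; points are limma estimates, bars are 95% intervals, filled points were called and the grey band marks the fold change limits. Mt1 and Mt2 are filled in all 3 comparisons and Slc30a7 in LPS compared with DMSO.

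Mt1 encodes one of the metallothioneins present in most tissues. Its gene (ENSMUSG00000031765) lies at chr8:94179082-94180327 on the plus strand of GRCm38. Mt1 stood at 298, 249 and 284 TPM in the DMSO columns, at 554, 491 and 617 TPM in the LPS columns and at 885, 805 and 965 TPM in the LPS + Ska columns. The groups did not overlap, with every LPS column above every DMSO column and every LPS + Ska column above every LPS column. The mean was 277 ± 25.6 TPM in DMSO, 554 ± 62.8 TPM in LPS and 885 ± 80.3 TPM in LPS + Ska (SD, n = 3 columns). With LPS compared with DMSO, Mt1 had a log2 fold change of 1.00 ± 0.10 (SE, adjusted p = 3.3e-05, limma). LPS + Ska stood a further 0.68 above LPS (95% interval 0.45 to 0.91, adjusted p = 0.0017, limma). Against DMSO, the log2 fold change in LPS + Ska was 1.67 (95% interval 1.44 to 1.90), or 3.2-fold in mean TPM.

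Mt2, the other widely expressed metallothionein, is the neighbour of Mt1. It lies at chr8:94172664-94173568 (ENSMUSG00000031762), also on the plus strand, and 5513 bases separate the end of Mt2 from the start of Mt1. Mt2 stood at 86.4, 77.3 and 81.1 TPM in DMSO, at 349.9, 295 and 404 TPM in LPS and at 588, 537 and 639 TPM in LPS + Ska. Again no columns overlapped between groups. The means were 81.6 ± 4.55, 349.9 ± 54.5 and 588 ± 50.8 TPM (SD, n = 3 columns each). In LPS compared with DMSO, Mt2 had a log2 fold change of 2.08 ± 0.11 (SE, adjusted p = 5.8e-07, limma), or 4.29-fold in mean TPM. LPS + Ska exceeded LPS by 0.75 on the log2 scale (95% interval 0.51 to 1.00, adjusted p = 0.0014, limma), or 1.68-fold. Its log2 fold change in LPS + Ska compared with DMSO was 2.83 (95% interval 2.58 to 3.08), or 7.2-fold.

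With the 2 values per group recovered from the tied columns, both metallothioneins were still called in each comparison. For LPS + Ska against LPS, the adjusted p was then 0.0045 for Mt1 and 0.0024 for Mt2 (limma). The recovered values lie closer together than replicates 6 and 7 (for Mt1 in LPS, 523 and 586 TPM against 491 and 617 TPM). Replicates 6 and 7 alone were not fitted for both LPS groups at once. An exact two-sided permutation test of 3 columns against 3 gave p = 0.1 for each gene and comparison, the smallest it can give. This test counted the tied replicate 5 as a separate column. With at most 2 independent values in each LPS group, a p this small could not be reached between LPS + Ska and LPS. Mt1 and Mt2 share no stretch of 50 bases with any other annotated gene, including each other. The antisense gene Gm45774 covers 73.5% of the exon bases of Mt2 and stood between 1.43 and 3.15 TPM over all columns; the strand used in counting is not stated, so its reads and those of Mt2 may not be separable. Mt1 and Mt2 transcripts are short, and the difference that transcript length alone fitted was between -0.18 and 0.036 on the log2 scale. Length here was that of the longest annotated transcript, 1085 bases for Mt1 and 511 for Mt2. The shortest Mt1 transcript has 549 bases, and the trend at that length was not read for Mt1. With that trend removed, an alternative chosen after the data had been seen, the log2 fold change in LPS + Ska compared with LPS was 0.64 for Mt1 and 0.75 for Mt2. As these are bulk samples, more cells with a transcript and more of it per cell cannot be told apart.

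The share of Mt2 relative to Mt1 was compared as well. The ratio of Mt2 to Mt1 TPM was 0.290, 0.311 and 0.286 in DMSO, 0.631, 0.601 and 0.655 in LPS, and 0.664, 0.667 and 0.662 in LPS + Ska. The ratio thus lay higher in every LPS column than in any DMSO column, while LPS + Ska lay just above the highest LPS column. Its mean was 0.295 ± 0.0136 in DMSO, 0.629 ± 0.0273 in LPS and 0.664 ± 0.00281 in LPS + Ska (SD, n = 3 columns). On the log2 scale the ratio was 1.09 higher in LPS than in DMSO and 0.079 higher in LPS + Ska than in LPS. The exact permutation p was 0.1, the smallest possible, for each of the 3 comparisons, so this test could not reach 0.05. It also counted the tied columns as separate values. Together the metallothioneins made up 0.0326% to 0.0385% of all TPM in DMSO, 0.0787% to 0.102% in LPS and 0.134% to 0.16% in LPS + Ska. Mt3 and Mt4, the metallothioneins of brain and squamous epithelium, were not tested: Mt4 was listed at 0 in all columns and Mt3 reached no more than 0.0682 TPM.

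**Figure D3:**
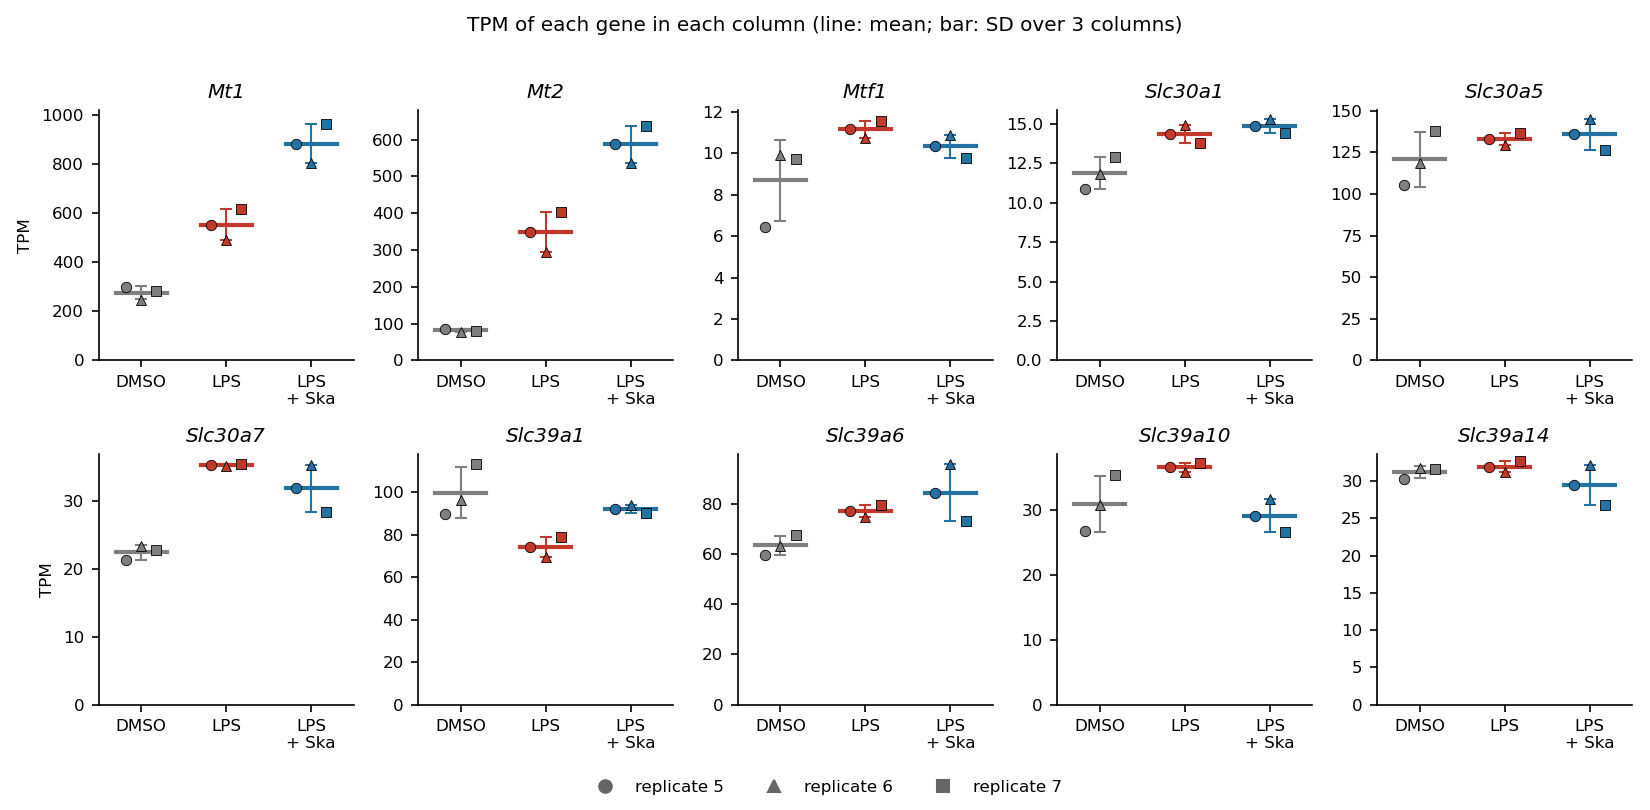
TPM of each of the 10 genes by group; points are the 9 columns with one marker shape per replicate number, lines are means, bars are the SD over 3 columns, and each panel has its own y axis from 0. Mt1 climbs from 277 to 554 to 885 TPM and Mt2 from 81.6 to 349.9 to 588 TPM in the group means, while the other panels show smaller shifts.

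Mtf1 encodes the zinc finger factor that binds MREs (ENSMUSG00000028890, chr4:124802104-124849800, plus strand). It stood at 6.42, 9.90 and 9.74 TPM in DMSO, at 11.1, 10.7 and 11.6 TPM in LPS, and at 10.3, 10.9 and 9.76 TPM in LPS + Ska. Replicate 5 of DMSO was the lowest column, and LPS + Ska overlapped both other groups. Its log2 fold change was 0.35 (95% interval 0.02 to 0.67) in LPS compared with DMSO, with an adjusted p of 0.061 (limma), and 0.17 (adjusted p = 0.12) without replicate 5 of DMSO. LPS + Ska differed from LPS by -0.10 (95% interval -0.42 to 0.22, adjusted p = 0.63, limma). In LPS + Ska compared with DMSO it was 0.25, which became 0.065 without replicate 5 of DMSO and 0.42 with median-ratio scaling. Mtf1 was not called in any comparison. The gene 1110065P20Rik on the opposite strand, which covers 8.09% of the exon bases of Mtf1, stood between 22.7 and 30.9 TPM in DMSO and between 7.58 and 15.8 TPM in the LPS and LPS + Ska columns, and without strand their reads could be mixed; its part in the Mtf1 values was not tested.

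Slc30a1 encodes ZnT1, the exporter of the plasma membrane (ENSMUSG00000037434, chr1:191906767-191913247, plus strand). It stood at 10.9, 11.8 and 12.9 TPM in DMSO, at 14.3, 14.9 and 13.8 TPM in LPS, and at 14.9, 15.3 and 14.4 TPM in LPS + Ska. Both LPS groups lay above DMSO in every column and overlapped each other. The log2 fold change was 0.26 in LPS compared with DMSO (adjusted p = 0.024, and 0.063 with 2 values per group, limma) and 0.31 in LPS + Ska compared with DMSO (adjusted p = 0.010, limma), both inside the fold change limits. The latter was 0.49 with median-ratio scaling, still inside them. The difference of LPS + Ska from LPS was 0.05 (95% interval -0.14 to 0.24), an interval that lies below that of Mt1 and of Mt2 in the same comparison; the difference between genes was not tested. The antisense gene 1700034H15Rik covers 8.92% of the exon bases of Slc30a1 and stood between 0.186 and 2.03 TPM.

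Slc30a7 (ENSMUSG00000054414, chr3:115938973-116007406, minus strand) encodes ZnT7, which loads zinc into the Golgi. It was called higher with LPS. Its TPM was 21.3, 23.3 and 22.8 in DMSO, 35.3, 35.2 and 35.4 in LPS, and 31.9, 35.3 and 28.4 in LPS + Ska. All LPS and LPS + Ska columns lay above all DMSO columns, and the LPS columns were within a narrow range while those of LPS + Ska were spread. Its log2 fold change in LPS compared with DMSO was 0.63 (95% interval 0.45 to 0.82, adjusted p = 0.00016, limma), which is close to the fold change limit, and it was 0.48 and no longer called with the length trend removed. Between LPS + Ska and LPS it was -0.15 (95% interval -0.34 to 0.04), and in LPS + Ska compared with DMSO 0.48 (adjusted p = 0.00074, limma), inside the limit. With median-ratio scaling this last value was 0.67, and with the length trend removed it was 0.61, and Slc30a7 was called in both.

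Slc30a5 (ENSMUSG00000021629, chr13:100802648-100833427, minus strand) encodes ZnT5, which works with ZnT6 in the early secretory pathway. It stood at 105, 119 and 138 TPM in DMSO, at 133, 129 and 136 TPM in LPS and at 136, 145 and 126 TPM in LPS + Ska. The 3 groups overlapped. Its log2 fold changes were 0.15 (95% interval -0.06 to 0.36), 0.03 (-0.18 to 0.24) and 0.17 (-0.04 to 0.38) in LPS compared with DMSO, LPS + Ska compared with LPS and LPS + Ska compared with DMSO.

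Among the importers, none of the 4 genes was called in any comparison at the fold change limits. Slc39a1, which encodes ZIP1 of the plasma membrane (ENSMUSG00000052310, chr3:90248172-90253612, plus strand), was the only one of the 10 genes below 0 in LPS compared with DMSO. It stood at 90.1, 96.3 and 113 TPM in DMSO, at 74.2, 69.6 and 78.8 TPM in LPS and at 92.2, 94.0 and 90.5 TPM in LPS + Ska. The LPS columns were below all others, and LPS + Ska overlapped DMSO. The log2 fold change was -0.42 (95% interval -0.61 to -0.23, adjusted p = 0.0021, limma) in LPS compared with DMSO and 0.31 (0.12 to 0.50, adjusted p = 0.024, limma) in LPS + Ska compared with LPS. The former was -0.24 (adjusted p = 0.023) with the length trend removed, and the latter had an adjusted p of 0.077 with 2 values per group. LPS + Ska differed from DMSO by -0.11, which became 0.085 with median-ratio scaling. Of the stretches of 50 bases in Slc39a1 transcripts, 21.8% also occur in another gene, the pseudogene Slc39a1-ps, which stood between 0.602 and 2.34 TPM, so the 2 may share reads.

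Slc39a10 (ENSMUSG00000025986, chr1:46807544-46892852, minus strand) encodes ZIP10, a plasma membrane importer. Its TPM was 26.8, 30.8 and 35.5 in DMSO, 36.7, 36.0 and 37.3 in LPS and 29.1, 31.7 and 26.6 in LPS + Ska. LPS lay above both other groups in every column, and DMSO overlapped LPS + Ska. The log2 fold change in LPS + Ska compared with LPS was -0.32 (95% interval -0.56 to -0.09, adjusted p = 0.042, and 0.11 with 2 values per group, limma), inside the fold change limit, and it was -0.16 with the length trend removed. In LPS compared with DMSO it was 0.24 (adjusted p = 0.065, limma), and 0.15 without replicate 5 of DMSO. Against DMSO, LPS + Ska was at -0.08, which became 0.11 with median-ratio scaling.

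Slc39a14 (ENSMUSG00000022094, chr14:70303469-70351425, minus strand) encodes ZIP14, which carries zinc, iron and manganese and is induced by Il6 in liver. It stood at 30.3, 31.7 and 31.7 TPM in DMSO, at 31.9, 31.2 and 32.6 TPM in LPS and at 29.4, 32.1 and 26.8 TPM in LPS + Ska. All 3 groups overlapped. The log2 fold change was 0.03 (95% interval -0.14 to 0.20) in LPS compared with DMSO, -0.12 (-0.28 to 0.05) in LPS + Ska compared with LPS and -0.09 (-0.25 to 0.08) in LPS + Ska compared with DMSO, the last becoming 0.10 with median-ratio scaling.

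Slc39a6 (ENSMUSG00000024270, chr18:24579881-24603817, minus strand) encodes ZIP6, the close relative of ZIP10. It stood at 59.6, 63.0 and 67.3 TPM in DMSO, at 77.0, 74.5 and 79.6 TPM in LPS and at 84.3, 95.8 and 72.9 TPM in LPS + Ska. Both LPS groups were above DMSO in every column, and LPS + Ska spread around LPS. The log2 fold change was 0.28 (adjusted p = 0.027, limma) in LPS compared with DMSO, 0.12 (95% interval -0.09 to 0.33) in LPS + Ska compared with LPS and 0.40 (0.19 to 0.61, adjusted p = 0.0044, limma) in LPS + Ska compared with DMSO, inside the fold change limit. With median-ratio scaling the last was 0.59, and Slc39a6 was called.

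By level, the order of the 10 genes differed between DMSO and the LPS groups mainly through Mt2. In DMSO the group means, in TPM, ran from Mt1 (277) through Slc30a5 (121), Slc39a1 (99.9), Mt2 (81.6), Slc39a6 (63.3), Slc39a14 (31.2), Slc39a10 (31.0), Slc30a7 (22.4) and Slc30a1 (11.9) to Mtf1 (8.69). The columns of Slc30a5 overlapped those of Slc39a1, and the columns of Slc39a14 those of Slc39a10, so these neighbours were not separated. Mt2 lay below Slc30a5 and Slc39a1 in DMSO and came next after Mt1 in LPS and in LPS + Ska, where its columns lay above all columns of Slc30a5 and below all columns of Mt1. Slc39a1 and Slc39a6 overlapped in LPS and in LPS + Ska. In LPS + Ska the columns of Slc30a7, Slc39a14 and Slc39a10 overlapped as well. Among all 55401 genes ranked by mean TPM, Mt1 was at rank 510 in DMSO, 218 in LPS and 141 in LPS + Ska, and Mt2 at 2129, 391 and 218.

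The genes whose pattern was most like that of Mt1 over the 9 columns were Gm10177, Rps21 and C1galt1c1 (Pearson correlations of log2(TPM + 1) of 0.998, 0.996 and 0.995). Those most like Mt2 were Gm14275, Rps27l and Marcksl1 (0.998, 0.997 and 0.994). Those most like Slc30a1 were Ppt1, Gm5165 and Tmem39a (0.996, 0.989 and 0.988). The search covered 12809 genes, and the 9 points share group means and, in the LPS groups, tied columns, so these values describe the data and carry no test.

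A further 43 metal-handling genes were listed, of which 30 passed the filter. The counts of called genes below stand beside the shares of all genes tested. These were 12.7% higher and 20% lower in LPS compared with DMSO, and 3.35% and 6.14% in LPS + Ska compared with LPS. In LPS + Ska compared with DMSO they were 11.4% and 25.3%. Of the 3 other zinc exporters tested, Slc30a4, which loads zinc into vesicles, was called. It stood at 12.8, 13.3 and 14.7 TPM in DMSO, at 31.9, 30.8 and 33.0 TPM in LPS and at 32.6, 36.2 and 29.0 TPM in LPS + Ska. Its log2 fold change was 1.17 in LPS compared with DMSO (adjusted p = 6.8e-06, limma) and 0.03 in LPS + Ska compared with LPS (95% interval -0.18 to 0.23), and it was called again in LPS + Ska compared with DMSO (95% interval 0.99 to 1.41, adjusted p = 4.7e-06, limma). Slc30a6 and Slc30a9 were not called. Of the 6 other importers tested, LPS compared with DMSO gave no gene higher and 2 lower: Slc39a3 (log2 fold change -1.36) and Slc39a13 (-1.38). Against LPS, LPS + Ska had 1 higher (Slc39a4) and 1 lower (Slc39a11), while Slc39a7, Slc39a9, Slc39a3 and Slc39a13 were not called. Slc39a4, the zinc importer of the gut, was at 1.83, 1.93 and 1.72 TPM in LPS and at 4.87, 4.10 and 5.64 TPM in LPS + Ska, a log2 fold change of 1.05 (adjusted p = 0.0018, limma) at a low level. Slc39a11 had a log2 fold change of -0.84 (adjusted p = 0.00061, limma), with 23.0, 22.9 and 23.1 TPM in LPS and 12.5, 11.9 and 13.0 TPM in LPS + Ska. The median log2 fold change of the 6 was -0.14 in LPS compared with DMSO, 0.24 in LPS + Ska compared with LPS and -0.52 in LPS + Ska compared with DMSO, beside the all-gene medians above. In LPS + Ska compared with DMSO, Slc39a4 rose (1.56) and Slc39a11 (-0.80), Slc39a13 (-1.33) and Slc39a3 (-0.82) fell, of which Slc39a11 was not called with the length trend removed (-0.57).

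Metallothioneins also bind copper. Of the 10 copper-handling genes tested, 2 rose and 1 fell with LPS compared with DMSO, beside 12.7% and 20% of all genes tested, and 2 rose and none fell in LPS + Ska compared with LPS, beside 3.35% and 6.14%. Cox17, a copper chaperone of cytochrome oxidase, rose with LPS (log2 fold change 1.47) and was at 2.04 in LPS + Ska compared with DMSO. Slc31a2, a vesicular copper carrier, also rose with LPS (0.64), a call that was lost without replicate 6 of DMSO (0.58) or replicate 7 of LPS (0.56). Ccs, which delivers copper to Sod1, fell with LPS (-1.53) and rose from LPS to LPS + Ska (1.61, adjusted p = 0.00067, limma). Atox1, which hands copper to the copper ATPases, had a log2 fold change of 0.06 with LPS and rose from LPS to LPS + Ska (0.77, adjusted p = 0.0037, limma), where the Atox1 columns were 178, 166 and 190 TPM against 104, 88.4 and 121 TPM in LPS. In LPS + Ska compared with DMSO, 3 of the 10 rose (Cox17, Slc31a2 at 1.06 and Atox1 at 0.83) and none fell, beside 11.4% and 25.3% of all genes.

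Of the 5 carriers of other divalent metals, Slc11a1, the phagosomal carrier of iron and manganese, and Slc40a1, the iron exporter ferroportin, fell with LPS and rose in LPS + Ska compared with LPS. Slc11a1 had log2 fold changes of -0.71 and 0.66 in these comparisons, and Slc40a1 of -1.89 and 2.26. The fall of Slc11a1 was -0.55 and not called with the length trend removed. Slc11a2, an importer of ferrous iron, rose with LPS (0.59), and none of the 5 was called in LPS + Ska compared with DMSO. Of all genes tested, 12.7% were called higher and 20% lower with LPS, and 11.4% and 25.3% in LPS + Ska compared with DMSO. Of the 6 zinc-binding and zinc-responsive genes tested, Selenow rose with LPS (0.59) and Csrp1 (-0.90), Ndrg1 (-1.29) and Zfand2a (-0.60) fell, beside the same shares of all genes. Several of these lay at the fold change limit. Slc11a2 was not called without replicate 5 (0.57) or 6 (0.52) of DMSO or replicate 6 of LPS (0.58), and Selenow was not called without replicate 6 of DMSO (0.55) or replicate 7 of LPS (0.58). Zfand2a was not called without replicate 7 of DMSO (-0.41) or replicate 6 of LPS (-0.52), nor with median-ratio scaling (-0.52) or with the length trend removed (-0.50). None of these 6 was called in LPS + Ska compared with LPS, and Ndrg1 alone was called in LPS + Ska compared with DMSO (-1.30). Of all 30, 5 rose and 1 fell in LPS + Ska compared with LPS, beside 3.35% and 6.14% of all genes tested.

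**Figure D4:**
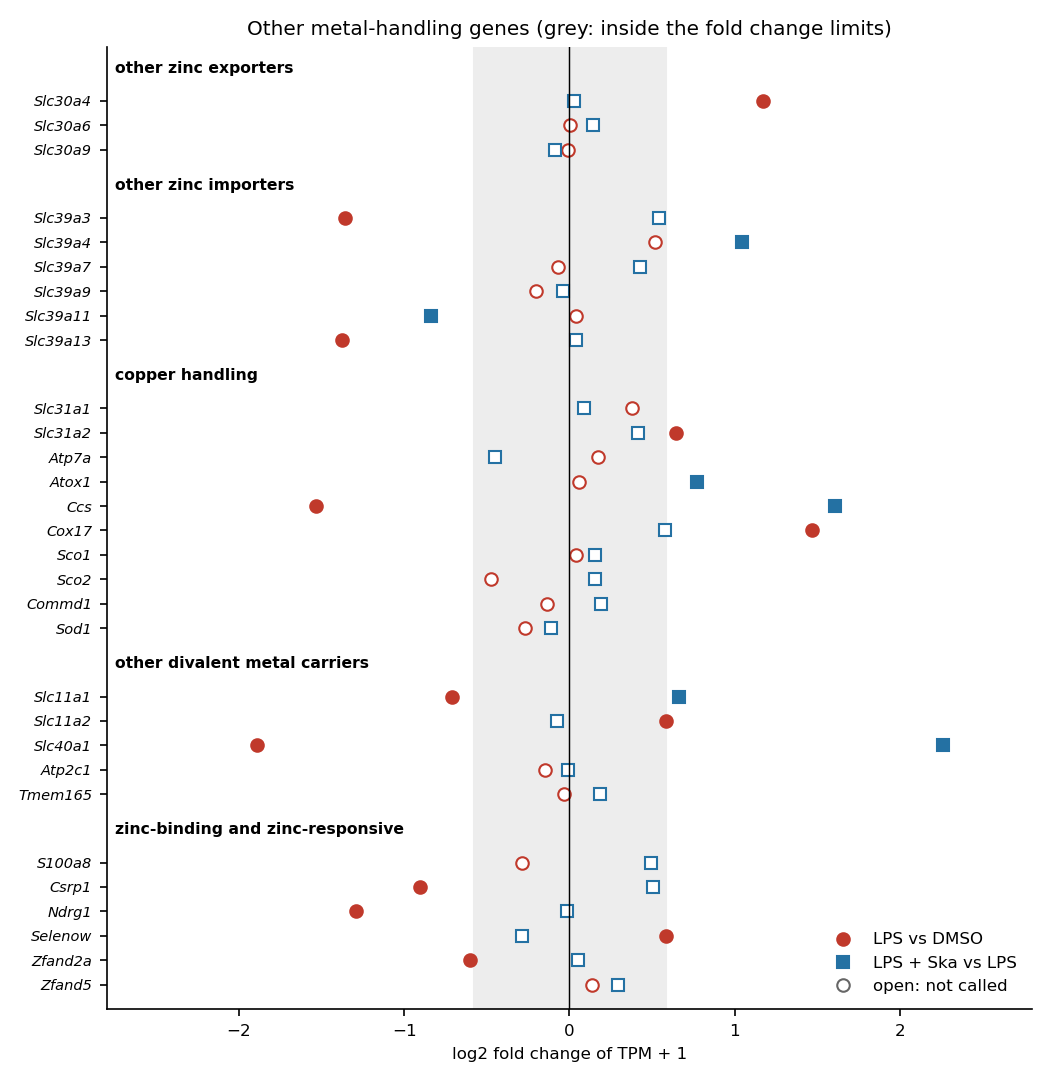
Log2 fold change of TPM + 1 for the other metal-handling genes tested, grouped by list, in LPS compared with DMSO (circles) and LPS + Ska compared with LPS (squares); filled marks were called and the grey band marks the fold change limits. Slc40a1, Ccs and Slc11a1 lie below the band with LPS and above it in LPS + Ska compared with LPS.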

How the data were processed

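RNA from RAW264.7 macrophages was isolated with the RNA-Quick kit and libraries were made with the NEBNext Ultra RNA kit. Per the submitters' processing notes, fastp 0.20.1, HISAT2 2.2.1, StringTie 2.0 and the build mm10 (GRCm38) were used; the strand setting is not given in the sources used here. Values were deposited as TPM by the authors for 55401 genes, and 55141 of the identifiers matched a symbol. Column sums ran from 999895 to 1000145, and between 12498 and 13012 genes reached 1 TPM per column. Depth and counting error cannot be had from TPM.

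Groups were taken from the treatment labels. A linear model was fitted with limma 3.58.1 (R 4.3.3; eBayes, trend on mean level) to log2(TPM + 1) of the 12819 genes whose mean reached 1 TPM, and all 9 columns entered the fit. The pseudocount of 1 understates the change of low genes. p-values were adjusted by Benjamini-Hochberg over all genes tested, and genes with an adjusted p below 0.05 were called if the fold change also passed 1.5 or 0.67. In LPS and LPS + Ska, 2 values per gene were recovered as replicate 5 plus and minus 0.5 times its difference from replicate 6, and used as an alternative. The fit was also run on simulated data, with independent and with tied columns. The outcome is not given here and is not used as support for the p-values. The named genes were the 10 genes, every called gene of the wider lists, and for Mt1, Mt2 and Slc30a1 the 3 genes with the highest correlation. The genes and lists were chosen with earlier results of these data known. Positions came from the GENCODE annotation of GRCm38 and promoters from RefSeq (GRCm38.p6). Protein sequences were not used here, so counts of cysteine and histidine were not made. Also tried were median-ratio scaling, calling by adjusted p alone, a pseudocount of 0.1, a filter at 5 TPM or none, fitting 2 groups at a time, no trend on mean level, a replicate block, and leaving out each column. Removal of the length trend (loess) and the alternatives for the Mt2 to Mt1 ratio were chosen after the data had been seen. The deviations of same-numbered columns correlated at 0.38, 0.15 and 0.13 between LPS and LPS + Ska, whose columns are tied, and between -0.032 and 0.080 otherwise, so pairing by number was not assumed. Plots were made in matplotlib 3.10.9.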

Additional observations from a re-analysis of the deposited data

How the results depend on the processing

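Mt1 and Mt2 were called higher in all 3 comparisons under each alternative that was run. Without the fold change limits (adjusted p alone), the genes called in LPS compared with DMSO were 3354 higher and 4380 lower, with 5 of the 10 genes higher and 1 lower. The counts in LPS + Ska compared with LPS were then 1139 higher and 2524 lower, with 3 and 1 of the 10, and in LPS + Ska compared with DMSO 2915 and 5201, with 5 of the 10 higher. The number of genes called lower in LPS + Ska compared with LPS, 787, was 516 with a mean TPM of at least 5 and 523 with the length trend removed. Median-ratio scaling gave 2212 genes higher in LPS + Ska compared with DMSO, beside 1457 without it, and 4 of the 10 genes higher.

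With the replicate block, LPS + Ska compared with LPS gave 427 genes higher and 771 lower, beside 429 and 787, and the same numbers of the 10 genes were called; the samples share only a number. Of 1401 values of single genes under the alternatives, 1339 kept their direction and call, 21 gained a call, 14 lost one and 27 changed sign. The 14 lost calls were of Slc30a7, Slc31a2, Slc11a1, Slc11a2, Selenow and Zfand2a in LPS compared with DMSO and of Slc39a11 in LPS + Ska compared with DMSO. None of the values that changed sign had been called. In LPS + Ska compared with LPS, removing the length trend gave log2 fold changes of 0.14 for Mtf1, 0.13 for Slc30a7, 0.033 for Slc39a14, 0.048 for Slc11a2 and 0.095 for Ndrg1, and median-ratio scaling gave 0.024 for Slc11a2 and 0.086 for Ndrg1. In LPS + Ska compared with DMSO, median-ratio scaling and removal of the length trend gave 0.085 and 0.13 for Slc39a1, 0.11 and 0.084 for Slc39a10, 0.10 and 0.10 for Slc39a14, and 0.14 and 0.18 for Slc11a1. With 1 column left out at a time, uncalled values crossed 0. In LPS compared with DMSO these ran from -0.070 to 0.13 for Slc39a11 and from -0.085 to 0.17 for Atox1. Between LPS + Ska and LPS they ran from -0.021 to 0.079 for Slc30a5, -0.049 to 0.11 for Slc30a4, -0.045 to 0.13 for Slc39a13, -0.17 to 0.015 for Slc11a2, -0.039 to 0.014 for Ndrg1 and -0.034 to 0.13 for Zfand2a. Between LPS + Ska and DMSO they ran from -0.18 to 0.017 for Slc39a10 and from -0.072 to 0.29 for Ccs. The cause was not tested. TPM without depth and at most 2 independent values in each LPS group limit all of these results, and the fit with no filter had too many genes without variance to be relied on.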
